A study of Mus musculus with 6 samples.

Results

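The CCN family of secreted matricellular proteins was followed in NIH3T3, a continuous fibroblast line first grown from mouse embryos. Its members were taken by gene symbol, as the rows named Ccn1 to Ccn5, which gave 5 of the 55401 genes listed. All 5 were among the 17159 genes that passed the filter on low counts and were tested. One group of 3 libraries came from wild-type NIH3T3 cells treated with IPRN, and the other group of 3 from wild-type NIH3T3 cells given DMSO as vehicle. Angelicin, a furanocoumarin from plants, appears in the title of the series, and its design text says that hydrogen peroxide and TGF-β were used to induce the cells. The labels give no dose or duration, and whether both stimuli were also given to DMSO cells is not stated. The rule takes the members by name, but the family itself was chosen by its fold changes of IPRN over DMSO in these libraries, where Ccn1 and Ccn2 were already known to be lower. Its fold changes and adjusted p-values are therefore given as a description.

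CCN proteins are secreted into the extracellular matrix, where they bind integrins, heparan sulphate proteoglycans and growth factors rather than serving as structural fibres. They are built from modules resembling insulin-like growth factor binding proteins, von Willebrand factor type C repeats, thrombospondin type 1 repeats and a C-terminal cysteine knot, and Ccn5 lacks the last of these. Ccn1 and Ccn2 are known as quickly induced targets of YAP with TEAD, of SRF and of serum growth factors, and Ccn2 is also a TGF-β target used as a marker of fibrosis.

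The promoter of Ccn1 is shown because Ccn1 had the highest level and the widest gap between the groups among the called members. Of the 5 members, 1 had an entry in the RefSeq promoter table. The sequence is the 250 bases before the RefSeq start of Ccn1 on GRCm38.p6, at chr3:145649986-145650235 on the minus strand, with the matches to the motifs named next in capitals.
Ccn1 promoter: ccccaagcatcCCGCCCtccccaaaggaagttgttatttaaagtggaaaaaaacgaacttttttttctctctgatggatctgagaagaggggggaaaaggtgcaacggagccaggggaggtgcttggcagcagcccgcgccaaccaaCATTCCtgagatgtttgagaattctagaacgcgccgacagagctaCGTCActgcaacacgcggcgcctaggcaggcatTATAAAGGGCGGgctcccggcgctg
Both strands were searched, with motifs chosen after the sequence had been seen. The TEAD motif CATTCC occurred once, between 103 and 98 bases before the start, and 12.6% of 32851 promoter windows of this length held it. The core of the cyclic AMP response element, TGACG, occurred once on the reverse strand, as CGTCA between 58 and 54 bases before the start, and was in 17.8% of windows. The TATA box TATAAA lay between 25 and 20 bases before the start, and 12.4% of windows held it. The GC box GGGCGG occurred on the reverse strand between 239 and 234 bases and on the forward strand between 19 and 14 bases before the start, with 32.7% of windows holding it. The forward GC box directly followed the TATA box. The AP-1 motif TGANTCA (in 6.75% of windows), the SMAD-binding motif CAGAC (in 42.2%) and the CArG box bound by SRF (in 1.47%) had 0 matches in this window. These matches describe letters only.

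Total counts ran from 63594179 to 74183334 in the IPRN libraries and from 60320282 to 78629444 in the DMSO libraries. A floor of 3 counts equalled 0.0382 to 0.0499 CPM, a count scaled to the library size. The 10 fibroblast markers summed to between 23432 and 26188 CPM in IPRN and between 21620 and 22649 CPM in DMSO. Several libraries stood apart in transcripts of other cell types. Leaving out Hp, 21 hepatocyte markers summed to 124, 45.2 and 8.83 CPM in IPRN 1, 2 and 3, against 6.01, 65.8 and 43.2 CPM in DMSO 1, 2 and 3, and 13 of them were at 0 in both IPRN 3 and DMSO 1. The 10 macrophage markers summed to between 22.6 and 147.2 CPM in IPRN, the highest being IPRN 3, and to between 13.2 and 25.6 CPM in DMSO. Other marker lists, for endothelial, epithelial and muscle cells, summed to at most 28.4 CPM in IPRN and 31.3 CPM in DMSO. Counts of the 13 mitochondrial transcripts made up 6.51% of IPRN 1, 4.88% of IPRN 2 and 5.02% of IPRN 3, against 5.09% to 5.22% in DMSO. Their part in the family's values was not tested, and results without these libraries stand beside the values below.

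Ccn1, Ccn2 and Ccn5 were lower in IPRN cells than in DMSO cells, Ccn4 was nearly equal, and Ccn3 was too scarce to place. In the edgeR quasi-likelihood test, 3 of the 5 members were called lower and 0 higher at an adjusted p under 0.05 (also 3 and 0 at an unadjusted p under 0.05 and in DESeq2), while 3.01% of all tested genes were called lower and 5.47% in either direction. In either direction, 3769 of the 17159 tested genes had an unadjusted p under 0.05, and DESeq2 called 1911 of 27168 genes. The 27168, here and below, are all genes with a DESeq2 fold change, including some that it gave no adjusted p. The share among genes that DESeq2 could call is therefore higher. The IPRN and DMSO values did not overlap for the same 3 members, as for 29.6% of all tested genes (14.7% with IPRN lower). The median log2 fold change over the 5 members was -0.45, beside 0.0016 over all tested genes. In bulk RNA, fewer cells that express a gene and less RNA per cell cannot be told apart.

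**Figure D1:**
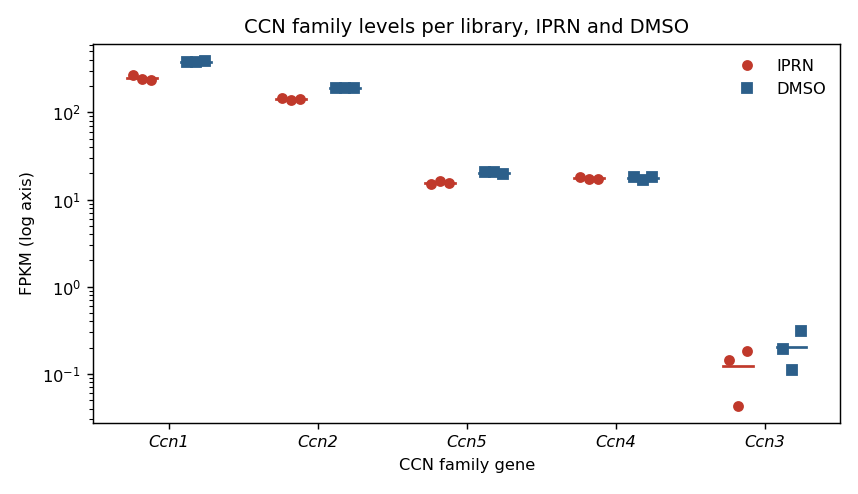
Levels of the 5 CCN genes in each library, in FPKM on a log axis, with IPRN (circles) left of DMSO (squares) and a bar at each group's mean. Ccn1 and Ccn2 stand above 100 FPKM in every library, Ccn4 and Ccn5 lie together between 15.2 and 20.6 FPKM, and Ccn3 stays under 1 FPKM.

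Levels per length placed Ccn1 highest, then Ccn2, with Ccn3 lowest, while Ccn4 and Ccn5 changed places between the groups. The deposited FPKM values are per kilobase of transcript. For Ccn1 they averaged 247 ± 16.1 in IPRN and 381 ± 5.48 in DMSO (SD, n = 3 each here and below). Ccn2 averaged 141 ± 4.73 FPKM in IPRN and 192 ± 1.01 FPKM in DMSO. Among tested genes, Ccn1 ranked 155 and Ccn2 289 by mean FPKM over the 6 libraries. Ccn5 averaged 15.7 ± 0.646 FPKM in IPRN and 20.2 ± 0.568 FPKM in DMSO, and Ccn4 17.5 ± 0.343 FPKM in IPRN and 17.6 ± 0.688 FPKM in DMSO. Ccn3 lay far below the others, at rank 14803. Members next to each other in level differed beyond their spread within each group. In FPKM, Ccn4 was above Ccn5 in all 3 IPRN libraries, and Ccn5 above Ccn4 in all 3 DMSO libraries.

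Ccn1, also known as Cyr61, encodes an integrin ligand that acts on fibroblast adhesion, migration and senescence. The gene (ENSMUSG00000028195) lies on chromosome 3 from 145646976 to 145649981 on the minus strand of GRCm38, with 1 transcript and no exon shared with another gene model. Its counts were 43209, 40128 and 33513 in IPRN 1, 2 and 3, against 51466, 61304 and 68323 in DMSO 1, 2 and 3. After TMM normalisation these were 606, 538 and 520.3 CPM in IPRN, against 857, 842 and 871 CPM in DMSO. The groups did not overlap, and IPRN 1 was the highest of the IPRN libraries. Ccn1 was 1.54-fold lower in IPRN, with a log2 fold change of -0.63 ± 0.064 (SE, 95% interval -0.78 to -0.47) and an edgeR adjusted p of 0.00508. It took 0.0555% of all counts in IPRN and 0.0855% in DMSO. By size of fall it ranked 39 among the 2131 tested genes that averaged at least 100 CPM. Its coefficient of variation over the IPRN libraries was 8.16%, against 1.67% over the DMSO libraries, so most of the spread lay within IPRN.

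Ccn2, or connective tissue growth factor, is secreted by activated fibroblasts and binds TGF-β, integrins and LRP1. The gene (ENSMUSG00000019997) lies on chromosome 10 from 24595442 to 24598683 on the plus strand and has 3 transcripts. Its counts were 33783, 32321 and 28472 in IPRN 1, 2 and 3, against 36900, 44200 and 48313 in DMSO 1, 2 and 3. Normalised values were 474, 433 and 442 CPM in IPRN, against 614, 607 and 616 CPM in DMSO. The groups did not overlap, and the 3 DMSO libraries lay within 10 CPM of one another. Ccn2 was 1.36-fold lower in IPRN, with a log2 fold change of -0.45 ± 0.049 (SE, 95% interval -0.56 to -0.33) and an edgeR adjusted p of 0.00631. By size of fall it ranked 76 among the same 2131 genes.

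Exons of Ccn2 overlap those of Gm15270, an antisense transcript on the opposite strand, and the library protocol marks no strand, so the value of Ccn2 is uncertain to that extent. Of 2867 stretches of 50 bases in Ccn2 transcripts, 494 also occur in Gm15270. Gm15270 had 141, 82 and 183 counts in IPRN 1, 2 and 3, against 97, 102 and 187 counts in DMSO 1, 2 and 3. In each library these counts were under 1% of those of Ccn2, and Gm15270 was not called (log2 fold change 0.13, edgeR adjusted p = 0.901).

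Ccn5, also known as Wisp2, encodes the member without the cysteine-knot module, and in smooth muscle it is known to oppose growth. The gene (ENSMUSG00000027656) lies on chromosome 2 from 163820861 to 163833146 on the plus strand. Its counts were 2365, 2607 and 2094 in IPRN 1, 2 and 3, against 2642, 3199 and 3295 in DMSO 1, 2 and 3. Normalised values were 33.2, 35.0 and 32.5 CPM in IPRN, against 44.0, 44.0 and 42.0 CPM in DMSO. The groups did not overlap, and within neither group did a library stand far from the others. Ccn5 was 1.29-fold lower in IPRN, with a log2 fold change of -0.37 ± 0.063 (SE, 95% interval -0.52 to -0.22) and an edgeR adjusted p of 0.0265. This call was lost without DMSO 1 (adjusted p = 0.121), DMSO 2 (0.122), DMSO 3 (0.0847), IPRN 2 (0.0713) or IPRN 3 (0.0873), and kept without IPRN 1 (0.0394).

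Ccn4, also known as Wisp1, encodes a WNT-inducible family member. The gene (ENSMUSG00000005124) lies on chromosome 15 from 66891320 to 66923201 on the plus strand. Its counts were 8049, 7975 and 6802 in IPRN 1, 2 and 3, against 6681, 7574 and 8813 in DMSO 1, 2 and 3. Normalised values were 113, 107 and 106 CPM in IPRN, against 111, 104 and 112 CPM in DMSO. The groups overlapped. The log2 fold change was -0.0097 ± 0.054 (SE, edgeR adjusted p = 0.951), with a 95% interval of -0.14 to 0.12. That interval does not reach the log2 fold changes of Ccn1, Ccn2 and Ccn5, although the difference between genes was not itself tested.

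Ccn3, also known as Nov, encodes a member that counters Ccn2 in several cell types. The gene (ENSMUSG00000037362) lies on chromosome 15 from 54745702 to 54754039 on the plus strand. It had 34, 11 and 37 counts in IPRN 1, 2 and 3, against 38, 26 and 77 counts in DMSO 1, 2 and 3. The groups overlapped, with IPRN 2 lowest and DMSO 3 highest. The log2 fold change was -0.72 ± 0.63 (SE, 95% interval -2.22 to 0.78, edgeR adjusted p = 0.589), so a change of the size seen in Ccn1 was not detectable at this depth. Of its 2820 stretches of 50 bases, 32 also occur in other genes. Ccn6, a sixth family gene outside the members, overlaps Tube1 and had 0, 10 and 3 counts in IPRN 1, 2 and 3, against 10, 5 and 0 counts in DMSO 1, 2 and 3. It did not pass the filter on low counts.

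**Figure D2:**
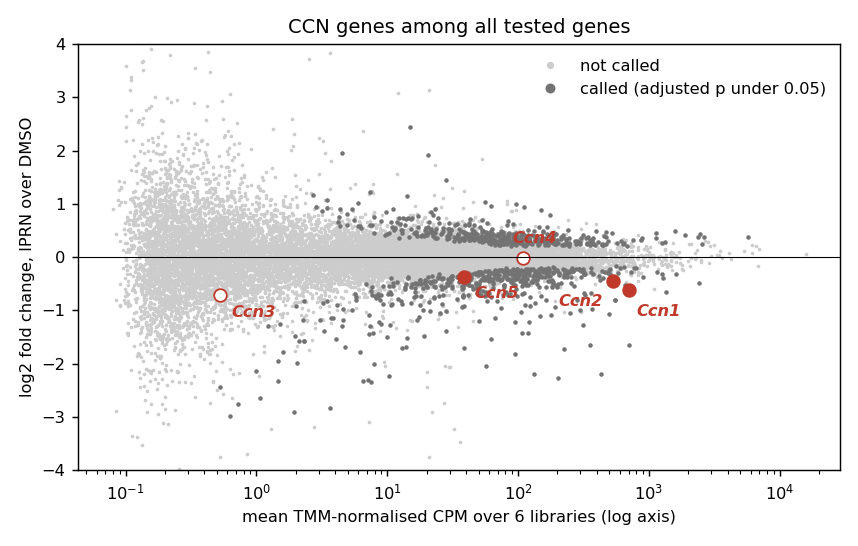
Log2 fold change of IPRN over DMSO against mean TMM-normalised CPM (log axis) for all 17159 tested genes, with called genes in dark grey and the CCN genes in red (filled where called, open where not). The 18 genes beyond a log2 fold change of 4 in either direction are not shown. Ccn1 and Ccn2 sit near the lower edge among abundant genes, Ccn4 sits on the zero line, and Ccn3 sits at the left among scarce genes.

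DMSO 1 and IPRN 3, which held few hepatocyte transcripts, were compared with each other and the remaining libraries among themselves. IPRN 3 over DMSO 1 gave a log2 ratio of -0.72 for Ccn1, -0.47 for Ccn2, -0.44 for Ccn5, -0.075 for Ccn4 and -0.14 for Ccn3. The mean of IPRN 1 and 2 over that of DMSO 2 and 3 gave -0.58 for Ccn1, -0.43 for Ccn2, -0.34 for Ccn5, 0.023 for Ccn4 and -1.10 for Ccn3. The first set is a single library of each group, so these ratios are a description and were not tested. With DMSO 1 and IPRN 3 both left out, edgeR called 0 of the 5 members, and 53 genes in all against 938 with every library. An unadjusted p under 0.05 was reached in that fit by 3 members and by 2627 of the 17638 genes tested. The adjusted p in that fit was 0.118 for Ccn1, 0.160 for Ccn2 and 0.253 for Ccn5.

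**Figure D3:**
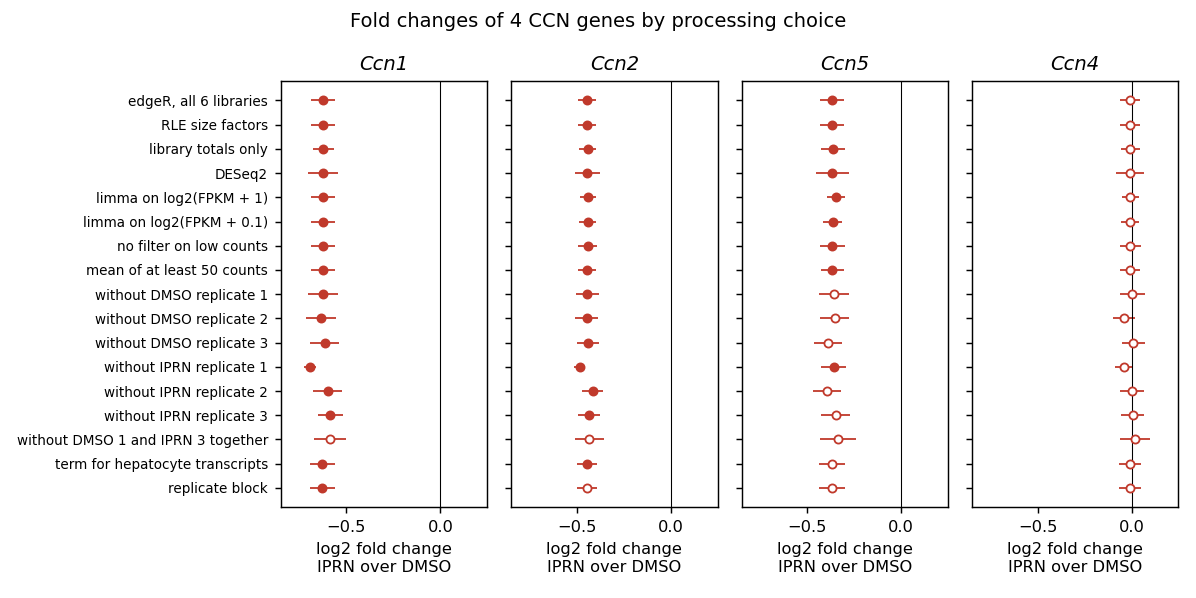
Log2 fold changes of IPRN over DMSO for Ccn1, Ccn2, Ccn5 and Ccn4 (points) with their standard errors (bars) under each processing choice, filled where the adjusted p was under 0.05 and open where not. Ccn1 stays between -0.69 and -0.59, Ccn2 between -0.48 and -0.42 and Ccn5 between -0.40 and -0.34, while Ccn4 stays within 0.040 of zero.

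The make-up of the family differed between the groups as well as its sum. The FPKM of the 5 members summed to 445.0, 412 and 409 in IPRN 1, 2 and 3, against 612, 604 and 617 in DMSO 1, 2 and 3. Ccn1 held 58.5 ± 1.07% of this sum in IPRN and 62.3 ± 0.245% in DMSO. Ccn2 held 33.5 ± 0.822% in IPRN and 31.4 ± 0.195% in DMSO, and Ccn4 held 4.16 ± 0.114% in IPRN and 2.88 ± 0.0831% in DMSO. Within a library, the ratio of Ccn1 to Ccn2 was 1.81, 1.76 and 1.67 in IPRN, against 1.98, 1.97 and 2.004 in DMSO. Ccn1 was thus further below its DMSO level than Ccn2. The ratio of Ccn5 to Ccn4 was 0.850, 0.946 and 0.890 in IPRN, against 1.14, 1.22 and 1.08 in DMSO, so their order in FPKM differed between the groups. In CPM, which is not scaled to transcript length, Ccn4 lay above Ccn5 in every library of both groups.

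**Figure D4:**
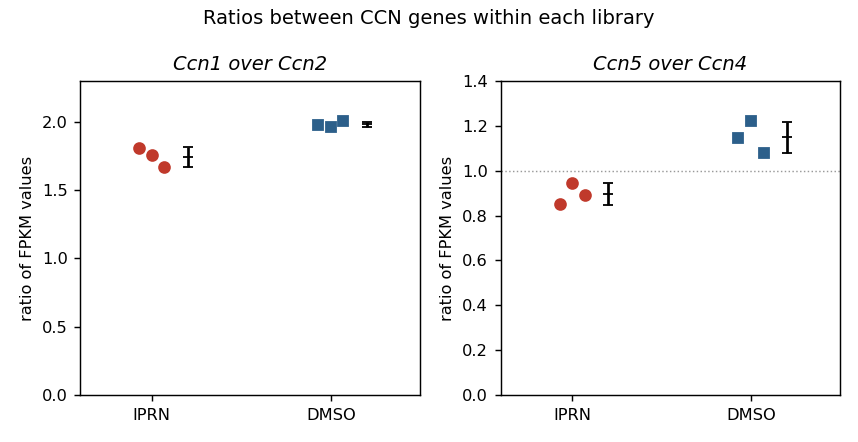
Ratios of FPKM values within each library, for Ccn1 over Ccn2 (left panel) and Ccn5 over Ccn4 (right panel), with IPRN (circles) left of DMSO (squares) and the mean ± SD of 3 libraries in black. The Ccn1 over Ccn2 ratio averages 1.75 in IPRN and 1.98 in DMSO, and the Ccn5 over Ccn4 ratio lies under 1 (dotted line) in IPRN and over 1 in DMSO.

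The transcripts of the members differ in features that the rule did not use. In GENCODE M21 each has 5 exons, and the coding length is 1137 bases in Ccn1, 1044 in Ccn2, 1062 in Ccn3, 1101 in Ccn4 and 753 in Ccn5. The pentamer ATTTA, a core of AU-rich elements known from mRNAs with short lives, occurs 5 times in the 690-base 3′ untranslated region of Ccn1 and 2 times in the 1067 bases of Ccn2. It occurs 6 times in the 1534 bases of Ccn3, 4 times in the 3747 bases of Ccn4 and 0 times in the 709 bases of Ccn5. At 7.25 per kilobase the density in Ccn1 was matched or exceeded by 3.26% of 20072 genes, and the median over those genes was 1.19 per kilobase. The longer AU-rich motif TTATTTATT occurs 0 times in each of the 5 members, and 7.09% of those genes hold it. The windows below, with ATTTA in capitals, show a tandem copy in Ccn1 and isolated copies in Ccn2. Ccn1 also has copies at bases 557, 666 and 681, which are not shown. Numbers give the first base of the match, counted from 1 at the start of the 3′ untranslated region.
Ccn1, base 646: agtgaagagaATTTATTTAtaaaat
Ccn2, base 95: tagcacattaATTTAaatctgtgtt
Ccn2, base 647: atctaagttaATTTAaagtcatttg
In the annotation deposited with the counts, all 5 members carry the terms extracellular region and insulin-like growth factor binding. Ccn1, Ccn2, Ccn3 and Ccn4 also carry heparin binding and integrin binding.

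Receptors and binding partners of CCN proteins moved in both directions. Of 24 genes listed, 22 were tested, 4 were called higher, 2 lower and 16 were not called, with a median log2 fold change of 0.090, beside 2.46% called higher and 3.01% called lower among all tested genes. Itga5, the integrin α5 gene, whose product binds fibronectin, measured 426, 415 and 419 CPM in IPRN, against 320, 327 and 340 CPM in DMSO, without overlap (log2 fold change 0.35 ± 0.044 SE, edgeR adjusted p = 0.0108). Lrp1, an endocytic receptor that takes up Ccn2, averaged 2663 ± 87.4 CPM in IPRN and 2048 ± 52.1 CPM in DMSO (log2 fold change 0.38, adjusted p = 0.00785). Both lost their call without DMSO 1 (0.0691 for Itga5 and 0.0569 for Lrp1) or DMSO 2 (0.0714 for Itga5 and 0.0542 for Lrp1). Fn1 and Hspg2, which encode fibronectin and perlecan, were the other called rises, and Fn1 overlaps the antisense gene Apol7d. Neither was called without DMSO 1, DMSO 2, DMSO 3 or IPRN 2 (0.0509 to 0.0854 for Fn1 and 0.0687 to 0.104 for Hspg2).

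Dcn, the small proteoglycan decorin that binds Ccn2, had a lower log2 fold change than any CCN gene, a difference that was not tested. It measured 189, 154 and 142 CPM in IPRN 1, 2 and 3, against 339, 334 and 333 CPM in DMSO 1, 2 and 3. The groups did not overlap, and IPRN 1 was again the highest of its group (log2 fold change -1.05 ± 0.10 SE, edgeR adjusted p = 0.00419). Vegfa, the growth factor that Ccn2 can hold in complex, averaged 126 ± 7.22 CPM in IPRN and 163 ± 3.01 CPM in DMSO (adjusted p = 0.0181). Vegfa was called without IPRN 1 but with none of the other 5 libraries left out (0.0573 to 0.0875). Integrin αM, encoded by Itgam, had 32, 45 and 839 counts in IPRN 1, 2 and 3, against 0, 26 and 54 counts in DMSO 1, 2 and 3. It was not called (adjusted p = 0.238), and IPRN 3, with the most macrophage transcripts, held most of its counts.

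The Hippo pathway governs the activity of YAP and TAZ. Of 23 tested components, 1 was called higher, 0 lower and 22 were not called by edgeR, with a median of -0.017, beside 5.47% called in either direction among all tested genes. At an unadjusted p under 0.05, 5 were higher and 1 lower, and DESeq2 called 3 higher and 0 lower. Over all genes and both directions, these counts were 3769 of 17159 at that unadjusted p and 1911 of 27168 in DESeq2. Yap1, which overlaps Gm20416, averaged 147 ± 4.38 CPM in IPRN and 152 ± 0.450 CPM in DMSO (edgeR adjusted p = 0.614). Wwtr1, which encodes TAZ, averaged 137 ± 9.13 CPM in IPRN and 147 ± 3.89 CPM in DMSO (adjusted p = 0.405). Tead1, the DNA-binding partner of YAP, measured 42.5, 180.8 and 23.8 CPM in IPRN 1, 2 and 3, against 22.2, 24.3 and 22.8 CPM in DMSO 1, 2 and 3. IPRN 2 alone stood far above the other libraries, and Tead1 was not called (0.181). Amotl2, an angiomotin that holds YAP in the cytoplasm and is itself a YAP target, averaged 359 ± 6.26 CPM in IPRN and 268 ± 17.1 CPM in DMSO (log2 fold change 0.42, 0.0140), a call lost when any library but IPRN 1 was left out (0.0502 to 0.0609).

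Other genes of the YAP and TAZ target signature were mixed in direction. Of 20 listed, 19 were tested, 4 were called higher, 1 lower and 14 were not called by edgeR, with a median of 0.0041. At an unadjusted p under 0.05, 6 were higher and 3 lower, and DESeq2, which fitted 20 of them, called 5 higher and 1 lower. Among all tested genes, edgeR called 2.46% higher and 3.01% lower. In both directions together, 3769 of 17159 genes had an unadjusted p under 0.05 and DESeq2 called 1911 of 27168. Nuak2, a kinase gene, measured between 28.2 and 32.1 CPM in IPRN and averaged 30.0 ± 1.99 CPM there, against 16.0 ± 2.03 CPM in DMSO, without overlap (log2 fold change 0.91 ± 0.11 SE, edgeR adjusted p = 0.0107). Axl, a receptor tyrosine kinase gene, averaged 1389 ± 85.1 CPM in IPRN and 1154 ± 24.5 CPM in DMSO (0.27, adjusted p = 0.0406). Amotl2 and Crim1 were the other called rises, and F3, which encodes tissue factor, was the called fall. Ankrd1, a cardiac ankyrin repeat gene often read as a YAP target beside Ccn1 and Ccn2, measured 156, 141 and 130.1 CPM in IPRN, against 166, 171 and 164 CPM in DMSO. Its groups did not overlap, but it was not called (log2 fold change -0.23, adjusted p = 0.119). The calls of Axl (0.0774 to 0.159), Crim1 (0.121 to 0.170) and F3 (0.104 to 0.168) were each lost when any library but IPRN 1 was left out, and that of Nuak2 without DMSO 1 (0.0598).

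SRF and its cofactors of the MRTF family link actin dynamics to transcription, and several of their listed targets were called higher. Of 18 tested genes, 8 were called higher, 0 lower and 10 were not called by edgeR, with a median of 0.34. At an unadjusted p under 0.05, 15 were higher and 0 lower, and DESeq2 called 13 higher and 0 lower. Beside this, edgeR called 2.46% of all tested genes higher and 3.01% lower. Taking both directions, 3769 of 17159 genes had an unadjusted p under 0.05 and DESeq2 called 1911 of 27168. Myh9, the non-muscle myosin heavy chain gene, measured 1864, 1798 and 1843 CPM in IPRN, against 1299.9, 1278 and 1350.3 CPM in DMSO (log2 fold change 0.49 ± 0.042 SE, edgeR adjusted p = 0.00237). Flna, encoding filamin A, averaged 2997 ± 56.3 CPM in IPRN and 2295 ± 23.0 CPM in DMSO (0.39, adjusted p = 0.00388), and Cnn2, encoding calponin 2, 549 ± 29.0 CPM in IPRN and 397 ± 2.34 CPM in DMSO (0.47, 0.00631). The other called rises were Acta2, Actb, Actg2, Tagln and Tpm2. Srf itself averaged 73.1 ± 2.89 CPM in IPRN and 66.6 ± 2.03 CPM in DMSO and was not called (0.208). The count of rises was 2 to 5 when any library but IPRN 1 was left out and 9 without IPRN 1. All genes called, in either direction, numbered 133 to 262 and 1047 in the same fits. Cnn2 was not called without DMSO 1 (0.0514).

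TGF-β components, from ligands and receptors to SMADs and inhibitors, gave 2 called rises, 0 called falls and 14 genes not called among 16 tested by edgeR, with a median of 0.057. At an unadjusted p under 0.05, 3 were higher and 3 lower, and DESeq2 called 2 higher and 2 lower. For all tested genes, edgeR called 2.46% higher and 3.01% lower. Either way, 3769 of 17159 genes had an unadjusted p under 0.05 and DESeq2 called 1911 of 27168. Tgfb1, the ligand gene, measured 68.1, 50.8 and 51.1 CPM in IPRN 1, 2 and 3, against 50.4, 46.5 and 46.0 CPM in DMSO 1, 2 and 3 (edgeR adjusted p = 0.298). Its IPRN mean was raised by IPRN 1, and the groups nearly met. Pmepa1, a TGF-β target that feeds back on SMADs, averaged 172 ± 5.93 CPM in IPRN and 116 ± 2.43 CPM in DMSO (log2 fold change 0.57, adjusted p = 0.00200). Smurf1, a ubiquitin ligase gene for SMADs, averaged 122 ± 0.996 CPM in IPRN and 105.5 ± 2.09 CPM in DMSO (0.21, 0.0418), a call lost when any library but IPRN 1 was left out (0.109 to 0.166). Ccn2, a known TGF-β target, thus lay lower in the same libraries in which Pmepa1 lay higher.

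Without DMSO 1 and IPRN 3 together, edgeR called 0 of 115 tested list genes. These came from the receptor, Hippo, YAP and TAZ, SRF, TGF-β, WNT and insulin-like growth factor binding protein lists. Of the 115, 35 were higher and 8 lower in IPRN at an unadjusted p under 0.05. That p was reached in either direction by 2627 of all 17638 genes tested in that fit. With all 6 libraries, edgeR called 20 of the list genes higher and 4 lower, beside 2.46% and 3.01% of all tested genes.

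**Figure D5:**
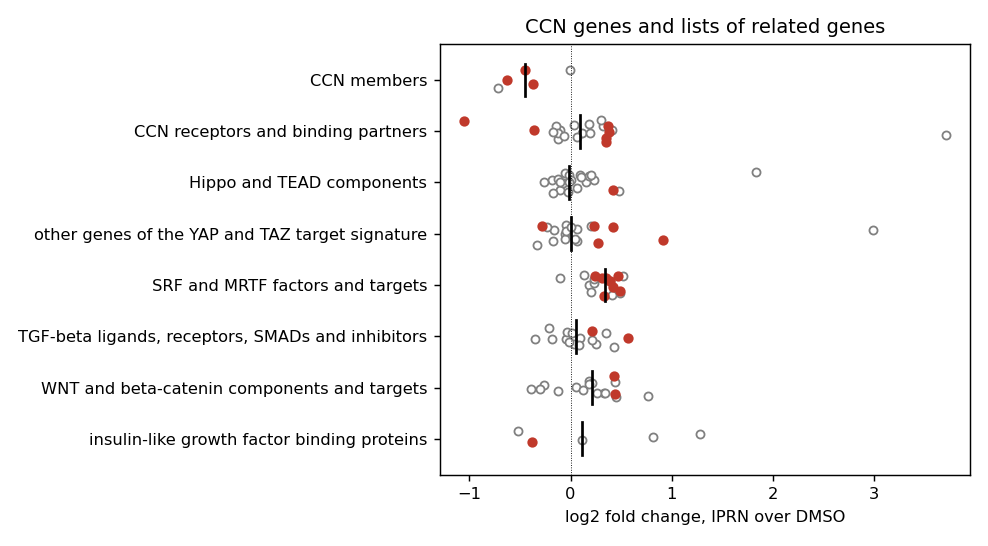
Log2 fold changes of IPRN over DMSO for the CCN genes and for 7 lists of related genes, one point per tested gene, filled red where called and open where not, with a black bar at each list's median. The CCN median is -0.45 and the SRF and MRTF median is 0.34. The far-right open points are Itgam at 3.71, Nt5e at 2.99 and Tead1 at 1.83, which were named after their values were seen.

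The genes whose levels most resembled those of Ccn1 and Ccn2 were sought among 4211 genes averaging at least 50 CPM, by Pearson's r of log2(CPM + 1) over the 6 libraries. This likeness is a description, since both groups enter it and any gene that differs between them scores high. Closest to Ccn1 were Dcn (r = 0.999), Vegfa (0.998) and the complement gene C3 (0.998). Closest to Ccn2 were the chemokine gene Cxcl1 (0.999), the kinase gene Mapk6 (0.999) and Wdr75, a ribosome biogenesis gene (0.998). An r of at least 0.95 was reached by 202 genes with Ccn1 and by 213 with Ccn2. Cxcl1 measured 69.2, 50.9 and 55.4 CPM in IPRN 1, 2 and 3, against 161, 156 and 152 CPM in DMSO 1, 2 and 3, so it too was highest in IPRN 1 among the IPRN libraries. C3 averaged 62.8 ± 4.11 CPM in IPRN and 99.1 ± 2.27 CPM in DMSO, a fold gap like that of Ccn1.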

How the data were processed

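The authors deposited 1 table per library with a raw count and an FPKM value for each Ensembl gene, per the file headers. The submitters' processing notes name cutadapt 1.9, and for the aligner, counting tool and build nothing was given in the sources used here. GENCODE M21 holds 55141 of the gene IDs, and 51957 of these (94.2%) have identical positions on GRCm38. The deposited FPKM values were used for levels between genes and, as log2(FPKM + 1), in an alternative test.

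The counts were fitted by edgeR 4.0.16 in R 4.3.3 (TMM, its expression filter with a minimum count of 10, and a two-sided quasi-likelihood test on a single group term). P-values were adjusted by the Benjamini-Hochberg method over 17159 genes and called under 0.05. Standard errors came from the F statistic. Of the genes tested, 6184 share an exon stretch with another model. limma 3.58.1, DESeq2 1.42.0, other scalings and filters and left-out libraries were alternatives.

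The members and lists were chosen with earlier results of these data known. Genes named were the members, the 3 called genes of smallest adjusted p per list, the factors Yap1, Wwtr1, Tead1, Srf, Tgfb1, Ctnnb1 and Ccn6, and the 3 genes closest to Ccn1 and to Ccn2. Others were named after their values were seen. Whether replicates came from separate cultures is not in the labels, so p-values reflect the spread between these 6 libraries alone, and that spread may be technical. Chi-square per degree of freedom between replicates, from 31.2 to 88.8, exceeded sampling noise, so each library counted once. Floors cover counting error only.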

Additional observations from a re-analysis of the deposited data

How the results depend on the processing

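The fall of Ccn1 kept its direction in all 16 alternatives and was called in all but one, the fit without DMSO 1 and IPRN 3 together (-0.59, adjusted p = 0.118). Ccn2 was not called in that fit (-0.43, 0.160). Ccn5 was not called in it (-0.34, 0.253) or with a term for hepatocyte transcripts (-0.37, 0.0600). That term only set DMSO 1 and IPRN 3 apart from the other libraries and did not follow the amount of these transcripts. With 1 library left out, the log2 fold change ran from -0.69 to -0.59 for Ccn1 and from -0.48 to -0.42 for Ccn2, called each time, and from -0.40 to -0.35 for Ccn5, called in 1 of 6 fits. For Ccn4 it ran from -0.040 to 0.010, and it was 0.020 without DMSO 1 and IPRN 3 together, so its sign was not fixed. Ccn3 was never called (-1.10 to -0.098), and DESeq2 gave it no adjusted p. The -0.098 came from log2(FPKM + 1), where the 1 added exceeds every FPKM value of Ccn3. Fits on counts gave Ccn3 -1.10 to -0.31. Of the members, 0 were called without DMSO 1 and IPRN 3 together and 2 to 3 with 1 library left out. Genes called numbered 938, against 1911 in DESeq2, 621 without a filter, 429 with the hepatocyte term, 53 without DMSO 1 and IPRN 3 together and 133 to 1047 with 1 library left out, where fewer libraries enter the fit; otherwise the cause was not tested. For 20 single genes of the lists and factors, 264 of 320 values kept their direction and their status, called or not. The call was lost in 56 values, and 0 reversed. Yap1, Wwtr1, Tead1, Srf, Tgfb1 and Ctnnb1 were not called to begin with and had no call to lose. All 56 losses thus fell on the genes called with all 6 libraries. DESeq2 called 13 SRF and MRTF genes higher, against 8 in edgeR.

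Same-numbered deviations correlated at -0.18, 0.086 and -0.13, and 1 of 6 libraries correlated best with its own number. The highest correlation, 0.24, was between DMSO 1 and IPRN 3, which held few hepatocyte transcripts. The labels do not say whether same-numbered libraries share a culture or day, and these weak correlations cannot settle it. With replicate number as a block, 103 genes and 1 of the members (Ccn1) were called, with -0.45 for Ccn2 (adjusted p = 0.0612) and -0.37 for Ccn5 (0.109). At this depth, Ccn3 and Ccn6 could not be placed.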

Other observations

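Of 17 tested WNT and β-catenin genes, a pathway known to induce Ccn4, 2 were called higher, 0 lower and 15 were not called by edgeR, with a median log2 fold change of 0.21. At an unadjusted p under 0.05, 8 were higher and 1 lower, and DESeq2, which fitted 20 genes of this list, called 4 higher and 0 lower. Across all tested genes, edgeR called 2.46% higher and 3.01% lower. With both directions counted, 3769 of 17159 genes had an unadjusted p under 0.05 and DESeq2 called 1911 of 27168. The receptor gene Fzd2 measured 220.3, 221 and 223 CPM in IPRN, against 162, 158 and 169.7 CPM in DMSO (log2 fold change 0.44 ± 0.045 SE, edgeR adjusted p = 0.00481). Fzd7 averaged 81.3 ± 2.41 CPM in IPRN and 60.1 ± 2.40 CPM in DMSO (0.43, adjusted p = 0.0113), a call lost without DMSO 1 (0.0525), DMSO 2 (0.0653) or DMSO 3 (0.0587). Ctnnb1, which encodes β-catenin and overlaps Ulk4, averaged 425 ± 10.4 CPM in IPRN and 510.5 ± 75.2 CPM in DMSO and was not called (0.183), with DMSO 3 highest at 597 CPM.

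Insulin-like growth factor binding proteins share a module with the CCN family. Of 8 genes, 5 were tested, 1 was called lower, 0 higher and 4 were not called by edgeR. At an unadjusted p under 0.05, 1 was lower and 1 higher, and DESeq2, which fitted 7 of them, called 1 lower and 1 higher. Over all tested genes, edgeR called 2.46% higher and 3.01% lower. Counting both directions, 3769 of 17159 genes had an unadjusted p under 0.05 and DESeq2 called 1911 of 27168. Igfbp6, which favours insulin-like growth factor 2, measured 123, 119 and 120.3 CPM in IPRN, against 158, 155 and 158 CPM in DMSO, a log2 fold change of -0.38 ± 0.042 SE (edgeR adjusted p = 0.00667) that lay close to that of Ccn5. It was not called without DMSO 1 (0.0525). Igfbp5 had 117, 78 and 121 counts in IPRN, against 36, 49 and 47 counts in DMSO, without overlap, and was not called (0.0680).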
